A study of Mus musculus with 6 samples.

Results

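The leucine-rich repeat transmembrane neuronal genes (Lrrtm1 to Lrrtm4) and the alpha-catenin genes (Ctnna1 to Ctnna3) were followed through Cnot3 and control immunoprecipitates of mouse heart. They are 7 of the 24421 genes in the count table, 4 LRRTM genes and 3 alpha-catenin genes, and were taken by gene symbol because 3 LRRTM genes lie inside alpha-catenin genes. They were proposed with results of these data in view, in particular the difference between Cnot3 and control IgG immunoprecipitates. Members' values in that difference are therefore given as a description, without a test.

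The study used RNA immunoprecipitation (RIP) followed by sequencing, in which an antibody pulls a protein out of a lysate and the RNA that comes down with it is sequenced. Whole hearts of C57BL6/J mice aged 4 weeks, with no genetic change or treatment named in the labels, gave 2 libraries each of control IgG RIP, Cnot3 RIP and Input, which is RNA of the heart lysate before precipitation. Its stated question was which mRNAs Cnot3 binds in the heart. The sources used here give 2 experiments but do not say whether they used separate animals, so a p-value here measures library-to-library spread that may be technical.

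LRRTM proteins are adhesion molecules of the postsynaptic membrane. Their leucine-rich repeats face the synaptic cleft and bind neurexins, the presynaptic partners through which they help to organise excitatory synapses. Alpha-catenins link the cadherin and beta-catenin complex to actin. Ctnna1 encodes the widely expressed alphaE-catenin, Ctnna2 the neural alphaN-catenin, and Ctnna3 the alphaT-catenin of heart and testis, which sits at the intercalated disc where cardiomyocytes join. Cnot3 belongs to the CCR4-NOT complex, the main deadenylase of mRNA: by trimming poly(A) tails it marks transcripts for decay.

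Each of the 3 nested LRRTM genes lay on the opposite strand within intron 7 of its host's principal transcript (GENCODE M21, mm10, introns counted from the host's 5′ end). Lrrtm1 (chr6:77242689-77257791, plus strand) lay in Ctnna2 (chr6:76881637-77979699, minus strand), whose intron 7 of 18 spanned 461.237 kb. Lrrtm2 (chr18:35209003-35215024, minus strand) lay in Ctnna1 (chr18:35118859-35254779, plus strand), in an intron 7 of 17 that was much shorter, at 39.511 kb. Lrrtm3 (chr10:63928472-64090277, minus strand) lay in Ctnna3 (chr10:63430098-65003667, plus strand), in an intron 7 of 17 of 397.872 kb. For Lrrtm4 (chr6:80018877-80810143, plus strand) no host was looked for. All 7 genes are protein-coding.

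The exons of Lrrtm3 and Ctnna3 did not overlap in any annotated transcript. For Lrrtm2, 95 exonic bases overlapped exons of alternative Ctnna1 transcripts and 0 overlapped the principal one. Whether the counting used strand is not given in the sources used here. Reads from intronic RNA of a host could then be counted for the nested gene, and the origin of such reads cannot be told apart in these values.

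**Figure D1:**
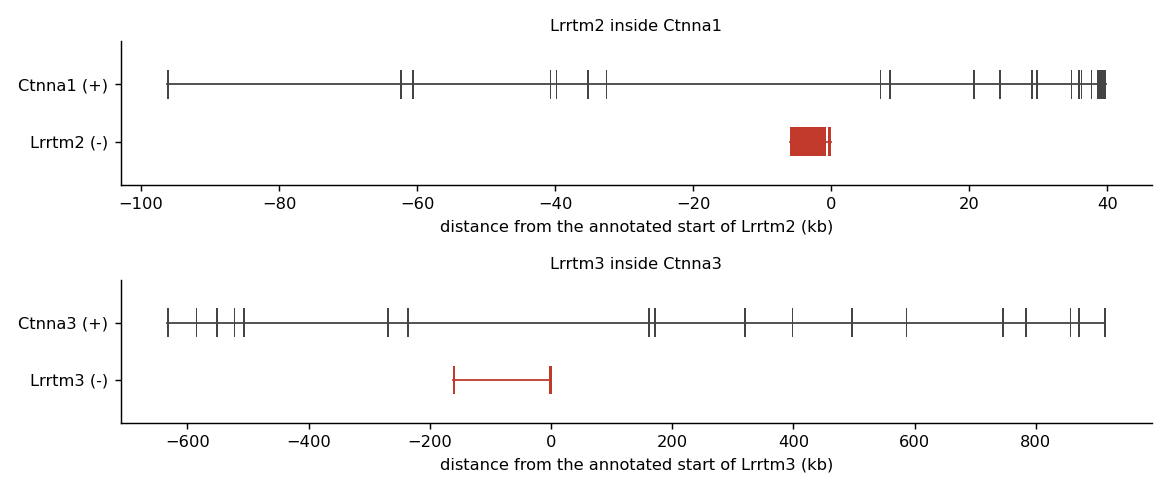
Maps of Lrrtm2 inside Ctnna1 and of Lrrtm3 inside Ctnna3, with distance from the nested gene's annotated start in kb on the horizontal axis, and boxes for exons of the principal transcripts (+ and - give the strand). Both nested genes sit in intron 7 of 17, 39.511 kb long in Ctnna1 and 397.872 kb long in Ctnna3.

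The promoters of Lrrtm3 and Ctnna3 are printed because these are the nested gene and the host whose levels both passed the test against Input, as the 250 bases before a start. The sequences are RefSeq's for GRCm38.p6, read 5′ to 3′ on the strand of each gene. Lrrtm3 covers chr10:64090256-64090505 on the minus strand. Of the 3 Ctnna3 starts in RefSeq, all on the plus strand, the most upstream follows chr10:63429848-63430097, and the middle one, at the start of the principal transcript drawn in the map, follows chr10:63457261-63457510. Capitals mark a match to GGGCGG on either strand.
Lrrtm3: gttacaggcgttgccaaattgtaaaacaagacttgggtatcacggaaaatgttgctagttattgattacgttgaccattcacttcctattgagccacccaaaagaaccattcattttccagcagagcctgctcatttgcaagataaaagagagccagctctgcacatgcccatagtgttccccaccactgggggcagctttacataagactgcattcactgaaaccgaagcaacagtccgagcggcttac
Ctnna3 upstream start: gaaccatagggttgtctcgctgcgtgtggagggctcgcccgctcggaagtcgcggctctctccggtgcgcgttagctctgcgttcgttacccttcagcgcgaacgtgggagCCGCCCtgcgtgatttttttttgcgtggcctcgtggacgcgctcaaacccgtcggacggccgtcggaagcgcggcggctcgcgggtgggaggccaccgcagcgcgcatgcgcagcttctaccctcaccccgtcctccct
Ctnna3 principal start: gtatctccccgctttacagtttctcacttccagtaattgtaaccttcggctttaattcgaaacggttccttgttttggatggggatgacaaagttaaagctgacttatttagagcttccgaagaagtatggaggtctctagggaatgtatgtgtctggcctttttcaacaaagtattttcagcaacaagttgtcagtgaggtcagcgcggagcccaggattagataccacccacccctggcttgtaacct

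The Lrrtm3 window held 6 CpG dinucleotides and a G and C content of 46%, and 6 CpG was also the median of 32851 RefSeq promoters of this length. The Ctnna3 window before the upstream start held 36 CpG and a G and C content of 67.6%, and 97.42% of those promoters held fewer CpG. The window before the principal start held 7 CpG at 44.8%, and that before the most downstream start, at chr10:63820805-63821054, held 1 CpG at 45.6%. These 4 windows were searched on both strands for the TATA box (letters TATAAA), the CCAAT box and the GC box (letters GGGCGG), whose letters do not contain one another. The matches were 1 GC box before the upstream Ctnna3 start, printed there as CCGCCC because it lies on the opposite strand, and 1 TATA box before the most downstream Ctnna3 start. Of all promoters, 12.4% held the TATA box letters, 33.8% those of the CCAAT box and 32.7% those of the GC box. In G and C content only the upstream Ctnna3 start thus stood apart from Lrrtm3 among these 3 starts. In CpG the most downstream start lay apart too, on the low side. Fewer CpG were held by 7.87% of promoters for that window and by 49.65% for Lrrtm3.

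Libraries held 15713318 to 33479580 reads. The 45S ribosomal RNA gene Rn45s took 59.4% to 60.2% of reads in control IgG RIP, 51.1% to 53.1% in Cnot3 RIP and 78.3% to 79.2% in Input, which left 3407528 to 12500739 reads for all other genes. Read counts per total of the library (CPM) were rescaled with trimmed-mean factors, and levels below are these scaled CPM, with replicate 1 before replicate 2 in each pair of values. Of all genes, 13010 passed the low-count filter and were tested.

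Transcripts of 4 of the 7 genes passed the filter. Lrrtm1 and Lrrtm4 had 0 reads in all 6 libraries, and Ctnna2 had 1 read, in control IgG RIP 2, and 0 elsewhere. A count of 0 allows up to 3 reads, equal to 0.0899 to 0.277 scaled CPM in these libraries, for counting error only. Neither Lrrtm1 nor its host Ctnna2 was thus measurable at this depth. For the 4 genes tested, reads per library ran from 27 to 10458. Because this is bulk tissue, fewer cells of a type and less RNA per cell cannot be told apart.

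Lrrtm3 had 815 and 592 reads from control IgG, 296 and 263 from Cnot3 precipitates, and 27 and 47 from Input. These were 47.0 and 26.8 scaled CPM with control IgG, 10.5 and 7.88 with Cnot3 antibody, and 2.49 and 2.27 without precipitation (Input). The 3 groups did not overlap: both control IgG RIP libraries were the highest and both Input libraries the lowest. Means were 36.9 ± 14.3 (control IgG RIP), 9.21 ± 1.88 (Cnot3 RIP) and 2.38 ± 0.159 (Input; SD, n = 2 each).

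Both immunoprecipitates together were tested against Input by the mean of their log2 levels. Equal and opposite changes of Cnot3 and control IgG RIP cancel in this mean. A change in control IgG RIP alone moves both this mean and the gap between Cnot3 and control IgG RIP used to choose members. The p-values and ranks of this comparison, here and below, are thus not independent of that choice. Lrrtm3 was higher by 2.80 on the log2 scale (SE 0.26, 6.96-fold, limma adjusted p = 0.00444) and ranked 7 of 13010 genes by size of increase. It was above both Input libraries in all 4 RIP libraries. Without Input 2 the value was 2.72 with an adjusted p of 0.0926, in a fit that called 0 of 13564 genes with limma (1113 were higher at an unadjusted p under 0.05). Over the other 5 single-library omissions and 9 alternative settings it kept the call, with adjusted p from 1.77e-14 to 0.0176 over the settings.

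Lrrtm2, the nested gene of Ctnna1, had 44 and 52 reads for Input, 471 and 192 for Cnot3 RIP, and 641 and 1081 for control IgG RIP. On the scaled CPM scale it stood at 37.0 and 49.0 from control IgG, 16.8 and 5.76 from Cnot3 precipitates, and 4.06 and 2.51 from Input. Its groups did not overlap either and had the same order as those of Lrrtm3, but the Cnot3 RIP libraries lay far apart and the lower one was close to Input. Means were 43.0 ± 8.49 (control IgG RIP), 11.3 ± 7.79 (Cnot3 RIP) and 3.29 ± 1.10 (Input; SD, n = 2 each).

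Against Input, the mean of both RIPs was higher for Lrrtm2 by 2.59 (SE 0.39, 6.03-fold, limma adjusted p = 0.0145), rank 14 of 13010. All 4 RIP libraries were above both Input libraries. The call was lost without control IgG RIP 1 (2.66, adjusted p = 0.0535), without Input 1 (2.89, adjusted p = 0.0597) and without Input 2 (2.24, adjusted p = 0.197). The direction stayed the same in those fits.

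Ctnna3, the cardiac alpha-catenin, had 1308 and 1266 reads with control IgG, 1155 and 1210 with Cnot3 antibody, and 332 and 537 without precipitation (Input). Its scaled CPM were 30.7 and 25.9 for Input, 41.1 and 36.3 for Cnot3 RIP, and 75.4 and 57.4 for control IgG RIP. The groups had the order of its nested gene Lrrtm3 and did not overlap, over a narrower range. The mean of both RIPs was higher than Input by 0.83 (SE 0.20, 1.78-fold, limma adjusted p = 0.0394) in 4 of 4 libraries. This call was lost under more alternatives than those of Lrrtm2 and Lrrtm3: adjusted p was 0.102 and 0.0610 without control IgG RIP 1 and 2, 0.157 and 0.332 without Input 1 and 2, 0.0712 with CPM computed without Rn45s, and 0.0569 with a replicate block.

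Ctnna1, the broadly expressed alpha-catenin, had 5695 and 4494 reads from control IgG, 6589 and 10458 from Cnot3 precipitates, and 2162 and 4633 from Input. Its scaled CPM were 328 and 204 with control IgG, 235 and 314 with Cnot3 antibody, and 200 and 224 without precipitation (Input). The ranges of all RIP and Input libraries overlapped, since control IgG RIP 2 was below Input 2. Both Cnot3 RIP libraries were above both Input libraries. Its difference against Input was 0.33 (SE 0.25, limma adjusted p = 0.414) and did not pass. With library size as the only scaling it was 1.25 (adjusted p = 0.00085), a scaling that put the median of all genes tested at 0.90 in place of 0.070.

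Of the 4 genes tested, 3 were thus higher in the mean of both RIPs and 0 were lower, where 5.09% of all genes tested were called higher, 4.36% lower and 9.45% in either direction. The nested genes Lrrtm3 and Lrrtm2 ranked 7 and 14 by size of increase, Ctnna3 ranked 1158, and Ctnna1 did not pass. The split of calls over all genes rested on the scaling, with 662 higher and 567 lower here, 7729 and 13 with library size only, and 224 and 349 with CPM without Rn45s. Lrrtm2 and Lrrtm3 kept their call and their direction under each of these scalings.

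**Figure D2:**
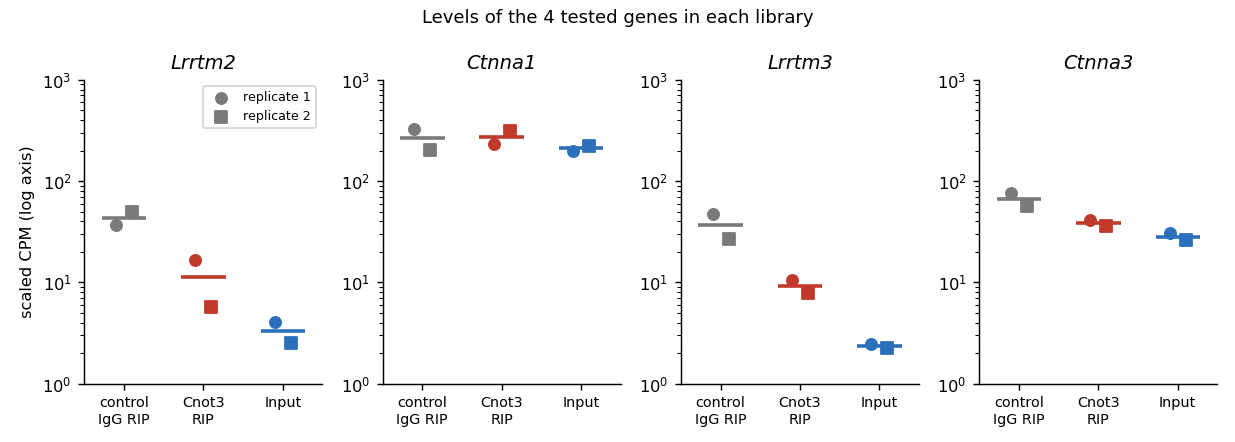
Scaled CPM of the 4 tested genes in each library on a log axis, with 1 point per library (symbols give the replicate number) and a bar at the mean of each group of 2. Lrrtm3 falls from 47.0 and 26.8 in control IgG RIP to 2.49 and 2.27 in Input, while the libraries of Ctnna1 overlap between 200 and 328.

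The 2 antibodies were then set against Input one at a time. These comparisons share Input with each other and share RIP libraries with the difference used to choose members. Their p-values and ranks are thus not independent of that choice. In control IgG RIP, Lrrtm3 was higher than Input by 3.77 (SE 0.30, 13.6-fold, limma adjusted p = 0.00299), rank 7 of 13010, and kept this call without each library in turn. Lrrtm2 was higher by 3.63 (SE 0.44, 12.4-fold, adjusted p = 0.00597), and without control IgG RIP 1 or Input 2 adjusted p was 0.0793 or 0.0521. Ctnna3 was higher by 1.21 (SE 0.23, 2.32-fold, adjusted p = 0.0288), and adjusted p was 0.0771 to 0.259 without each control IgG RIP or Input library and 0.0533 with CPM without Rn45s. Ctnna1 stood at 0.29 (adjusted p = 0.574). Thus 3 of the 4 genes passed here, where 2.58% of all genes were called higher, 1.49% lower and 4.07% in either direction.

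In Cnot3 RIP, Lrrtm3 was higher than Input by 1.83 (SE 0.30, 3.56-fold, limma adjusted p = 0.0136), but without Input 1 or 2 adjusted p was 0.0713 or 0.126. Lrrtm2 stood at 1.55 (SE 0.44, 2.93-fold) with an adjusted p of 0.0618. Without Cnot3 RIP 2, its lowest RIP library, it was 2.30 with an adjusted p of 0.0219, and without Cnot3 RIP 1 it was 0.80 with an adjusted p of 0.144. Over the other omissions it ran up to 0.333 in adjusted p (without Input 2), and it passed with library size only (0.00238), DESeq2 (0.00179) and the replicate block (0.0494). Ctnna3 stood at 0.45 (adjusted p = 0.246) and Ctnna1 at 0.36 (adjusted p = 0.466). So 1 of the 4 passed, where 5.86% of all genes were called higher, 2.47% lower and 8.32% in either direction.

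Between the antibodies, as a description only, Cnot3 RIP was at 0.262 of the control IgG RIP level for Lrrtm3 (log2 difference -1.93, SE 0.30). The ratio was 0.236 for Lrrtm2 (-2.08, SE 0.44) and 0.589 for Ctnna3 (-0.76, SE 0.23), and Ctnna1 differed by 0.069 (SE 0.29). The Lrrtm2 difference was -2.82 without Cnot3 RIP 1 and -1.32 without Cnot3 RIP 2. Lrrtm2, Lrrtm3 and Ctnna3 had both Cnot3 RIP libraries below both control IgG RIP libraries, and Ctnna1 overlapped. How many of all genes tested separate in this way was not counted, so nothing is read from it. Over all genes tested, 0.277% were called lower, 1.54% higher and 1.81% in either direction, from which nothing is read for genes chosen on this difference. As measured, Lrrtm2, Lrrtm3 and Ctnna3 were highest in the precipitates of the control antibody, not in those of Cnot3. This order was in view when the members were proposed and is not a result about them.

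Levels of nested gene and host can be compared per kb of exon of the principal transcript. Lrrtm3 stood at 0.640 and 0.582 scaled CPM per kb for Input, 2.71 and 2.02 for Cnot3 RIP, and 12.1 and 6.88 for control IgG RIP. Ctnna3 stood at 8.33 and 7.04 per kb for Input, 11.2 and 9.85 for Cnot3 RIP, and 20.5 and 15.6 for control IgG RIP. Per kb the host was thus above the nested gene in every library, by 13.0 and 12.1 times in Input and by 1.70 and 2.26 times in control IgG RIP.

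For the other pair, Ctnna1 stood at 53.5 to 88.0 scaled CPM per kb over the 6 libraries and Lrrtm2 at 0.443 to 8.63. The host was 74.7 and 135 times the nested gene per kb in Input, 21.3 and 82.8 times in Cnot3 RIP, and 13.5 and 6.32 times in control IgG RIP. In Input, the order per kb was Ctnna1, Ctnna3, Lrrtm3 and Lrrtm2 by group mean. The last pair, at 0.611 ± 0.0407 for Lrrtm3 and 0.579 ± 0.194 for Lrrtm2 (SD, n = 2), did not differ beyond its spread.

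Within a library, the share of reads that fell to the nested gene does not depend on scaling. Of the Lrrtm3 plus Ctnna3 reads, Lrrtm3 took 38.4% (95% Clopper-Pearson interval 36.3 to 40.5) and 31.9% (29.7 to 34.0) in control IgG RIP. It took 20.4% (18.4 to 22.6) and 17.9% (15.9 to 19.9) in Cnot3 RIP. In Input it took 7.52% (5.01 to 10.8) and 8.05% (5.97 to 10.6). The 3 groups lay apart with no overlapping intervals between them, and the intervals cover counting error only.

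Lrrtm2 took 10.1% (9.38 to 10.9) and 19.4% (18.4 to 20.5) of the Lrrtm2 plus Ctnna1 reads in control IgG RIP. Its share was 6.67% (6.10 to 7.28) and 1.80% (1.56 to 2.07) in Cnot3 RIP, and 1.99% (1.45 to 2.67) and 1.11% (0.830 to 1.45) in Input. Here Cnot3 RIP 2 lay among the Input libraries, and the other 3 RIP libraries were above them.

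The log2 ratio of Lrrtm3 to Ctnna3 reads was higher in the 4 RIP libraries than in the 2 Input libraries by 2.06 (4.18-fold), in 4 of 4 libraries. The exact two-sided permutation test gave p = 0.133, the smallest that 4 against 2 libraries allow. For Lrrtm2 and Ctnna1 the difference was 2.34 (5.06-fold, exact permutation p = 0.267), in 3 of 4 libraries. Neither ratio could reach 0.05 in this design.

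**Figure D3:**
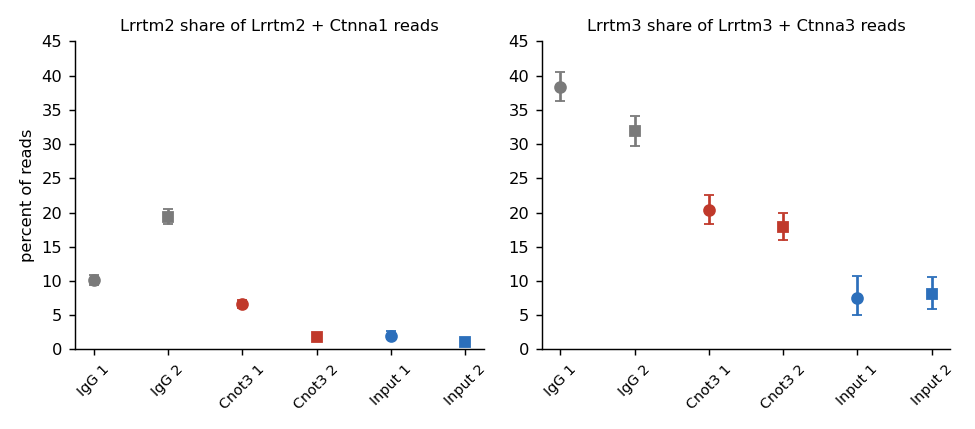
Percent of reads of each nested gene among its own and its host's reads in each library, with exact 95% intervals for counting error. Lrrtm3 goes from 31.9% and 38.4% in control IgG RIP to 7.52% and 8.05% in Input, and Lrrtm2 is at 1.80% in Cnot3 RIP 2, within the range of the Input intervals.

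To set both pairs beside other nested genes, every tested gene whose span lay within a tested gene of the opposite strand was taken. This gave 282 pairs with 242 hosts. A place within a single host intron and exons free of overlap were not required, so other pairs may differ in layout from the LRRTM pairs. A limma fit on the ratio of scaled CPM over these pairs was added after the data had been seen. The ratio to the host rose in the mean of both RIPs by 1.97 for Lrrtm3 (SE 0.35, adjusted p = 0.00338, rank 17 of 282). It rose by 2.27 for Lrrtm2 (SE 0.51, adjusted p = 0.00897, rank 6). Of all pairs, 14.5% were called higher, 5.32% lower and 19.9% in either direction, so this kind of shift was not rare among the pairs tested. Nested genes low in Input, such as Lrrc4 and Lrrn3, could enter the pairs through their RIP libraries. The share called higher and the median pair may thus partly follow from the filter, here and for each antibody. Some pairs also share a host and are not independent. The median pair changed by 0.34, with quartiles at -0.23 and 1.01, and nested gene and host moved in the same direction in 191 pairs (67.7%).

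Each antibody against Input shares RIP libraries with the difference used to choose members. The p-values and ranks that follow are therefore not independent of that choice. In control IgG RIP against Input the same fit gave 3.34 for Lrrtm2 (adjusted p = 0.00152, rank 3) and 2.55 for Lrrtm3 (adjusted p = 0.000981, rank 22). Of all pairs there, 27.7% were called higher, 4.61% lower and 32.3% in either direction. In Cnot3 RIP against Input the values were 1.19 (adjusted p = 0.284) and 1.38 (adjusted p = 0.0775), neither of them called, where 0.709% of pairs were. The median pair changed by 0.61 in control IgG RIP and by -0.0023 in Cnot3 RIP.

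**Figure D4:**
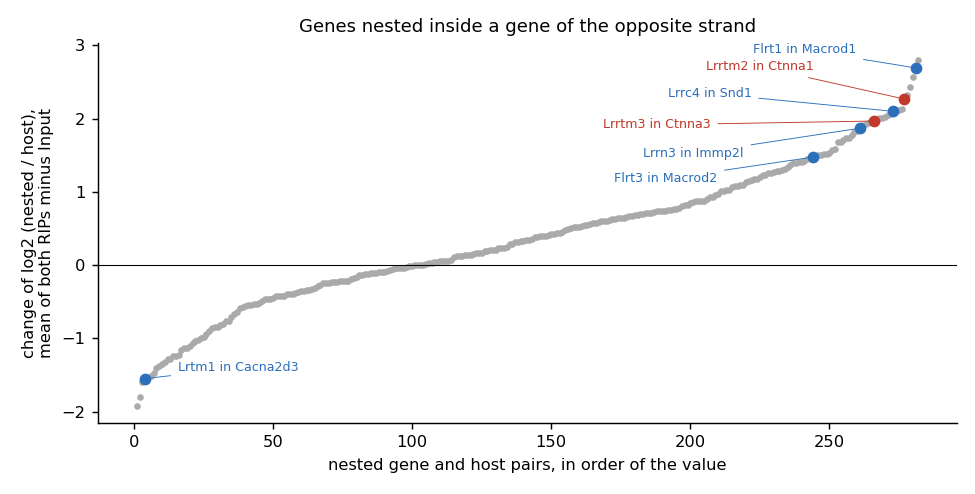
Change in the log2 ratio of nested gene to host, mean of both RIPs minus Input, for 282 pairs in order of the value. Lrrtm2 at 2.27 and Lrrtm3 at 1.97 rank 6 and 17, against a median pair at 0.34.

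The adhesion partners of the alpha-catenins did not pass the test. Of 22 listed cadherin, catenin and intercalated disc genes, 21 were tested and 0 were called in either direction by limma in the mean of both RIPs against Input. At an unadjusted p under 0.05 there were 3 higher and 1 lower, and edgeR and DESeq2 called 0. The list's median was 0.086, beside 0.070 over all genes tested. Desmoplakin (Dsp), which ties desmosomes to intermediate filaments, stood at 0.21 (adjusted p = 0.670), and desmin (Des), the muscle intermediate filament, at -0.65 (adjusted p = 0.134). The cadherin Cdh2, whose complex alpha-catenins anchor, stood at 0.30.

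Among 37 listed synaptic leucine-rich repeat genes, neurexins and their partners, 26 were tested, 4 were higher and 0 lower by limma, with a median of 0.18. The 4 were Lrrc4, Lrrn3, Flrt1 and Flrt3, and edgeR called 3. Lrrc4, which encodes a postsynaptic netrin-G ligand, had 7.21 and 5.98 scaled CPM from control IgG, 3.03 and 1.38 from Cnot3 precipitates, and 0.554 and 0.386 from Input. It rose by 2.47 (SE 0.32, adjusted p = 0.0109) and lost the call without Input 2 (adjusted p = 0.155). Its order of groups was that of Lrrtm3, with no overlap.

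Flrt1, a member of the fibronectin leucine-rich transmembrane family, had 33.8 and 17.8 scaled CPM with control IgG, 8.62 and 4.77 with Cnot3 antibody, and 4.62 and 2.12 without precipitation (Input). It rose by 1.92 (SE 0.37, adjusted p = 0.0253), with Cnot3 RIP 2 just above Input 1 and no overlap of RIP and Input libraries. Lrrn3, another leucine-rich repeat neuronal gene, rose by 2.00 (SE 0.39, adjusted p = 0.0260), and Flrt3, a relative of Flrt1, by 1.55 (SE 0.41, adjusted p = 0.0471). Leaving out 1 library ended these calls: for Flrt1 control IgG RIP 1 (adjusted p = 0.0718), Input 1 (0.0628) or Input 2 (0.256). For Lrrn3 it was control IgG RIP 1 (0.0791) or 2 (0.0505) and Input 1 (0.0573) or 2 (0.252). For Flrt3 it was control IgG RIP 1 (0.101), Cnot3 RIP 2 (0.0758) and Input 1 (0.201) or 2 (0.256). Without Input 1 and Input 2 the values were 2.41 and 1.37 for Flrt1 and 2.59 and 1.42 for Lrrn3. Flrt3 was also not called with a pseudocount of 1 (0.0653), CPM without Rn45s (0.0560), no filter (0.0822), edgeR (0.0607) or the replicate block (0.0587).

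Each of these 4 genes, like Lrrtm2 and Lrrtm3, lay inside a tested gene of the opposite strand: Lrrc4 in Snd1, Lrrn3 in Immp2l, Flrt1 in Macrod1 and Flrt3 in Macrod2. Their ratio to the host rose by 2.10 for Lrrc4, 1.87 for Lrrn3 and 2.69 for Flrt1 in the fit over pairs, and stood at 1.47 for Flrt3 (adjusted p = 0.0589). Of the 26 tested genes of the synaptic list, 6 were nested in this way, with a median of 1.74 in the mean of both RIPs against Input. The other 2 nested genes, Lrfn4 in Pcx at 0.13 and Lrtm1 in Cacna2d3 at -0.46, were not called. The ratio of Lrtm1 to its host nevertheless fell, by 1.55 (adjusted p = 0.0113, rank 279 of 282), the opposite direction to the LRRTM pairs. The 20 genes not nested had a median of 0.035 and ranged from -0.57 to 1.09, and 0 were called by limma, edgeR or DESeq2, with 2 higher and 1 lower at an unadjusted limma p under 0.05. This split was made after the values had been seen and carries no test. Lrrc4, Lrrn3 and Flrt3 were too low in Input to pass the filter there and passed it through their RIP libraries. Input levels were 0.831 and 0.241 scaled CPM for Lrrn3 and 0.369 and 0.531 for Flrt3. A gene as low in Input and not higher in RIP would not have been tested. Their calls, and the nested median that includes them, thus partly follow from the filter.

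**Figure D5:**
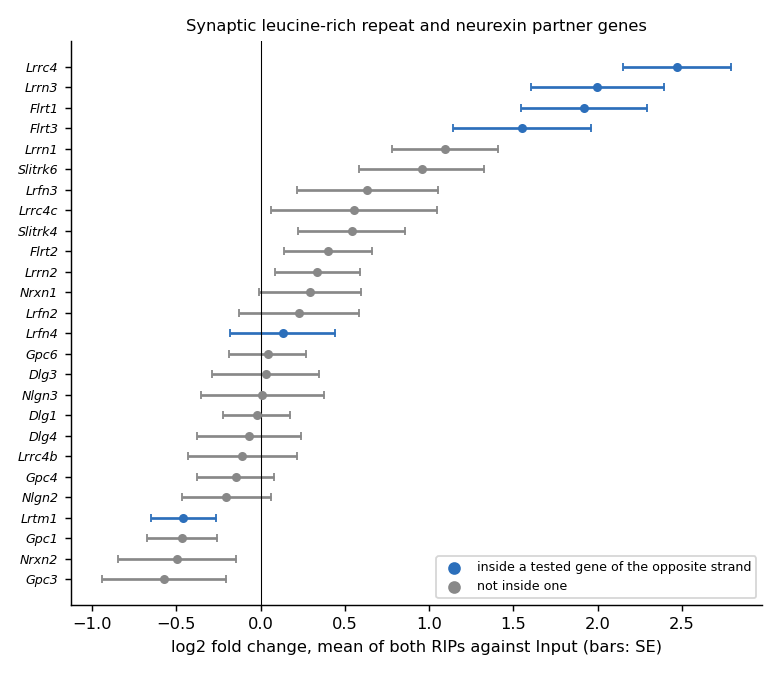
Log2 fold change of the mean of both RIPs against Input for the 26 tested genes of the synaptic list (points, with SE as bars), coloured by whether the gene lies inside a tested gene of the opposite strand. Of the 6 nested genes 4 are called higher, led by Lrrc4 at 2.47, and the 20 others lie between -0.57 and 1.09.

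Other groups of genes moved between the same libraries, and their part in the LRRTM values was not tested. Of 10 listed nuclear RNAs, 9 were tested, and 3 were higher in the mean of both RIPs, with a median of 0.95. They were the imprinted antisense RNAs Airn (2.56, limma adjusted p = 0.0150) and Kcnq1ot1 (2.40, adjusted p = 0.0225) and the X-inactivation RNA Xist (2.01, adjusted p = 0.0497). Airn was not called without control IgG RIP 1 (0.0542) or Input 2 (0.196), Kcnq1ot1 without control IgG RIP 1 (0.0680), control IgG RIP 2 (0.0535) or Input 2 (0.244), and Xist without any one library other than Cnot3 RIP 2 (0.0556 to 0.36). Without Input 1 and Input 2 the values were 3.12 and 1.96 for Airn, 3.11 and 1.63 for Kcnq1ot1, and 3.05 and 1.01 for Xist. Xist was also not called with CPM without Rn45s (0.0793), no filter (0.0848), a minimum count of 30 (0.0510) or edgeR (0.0764). Its level was 1.11 scaled CPM in Input 1 and 0.0966 in Input 2, the latter below the 0.145 that 3 reads are worth there. Xist thus passed the filter through its RIP libraries, and its call partly follows from the filter. The other nuclear RNAs tested were not called: Malat1 (-0.29), Snhg14 (0.021), Firre (0.24), Neat1 (0.33), Meg3 (0.95) and Tsix, just above Meg3. The list summed to 6786 and 4809 scaled CPM for Input, 5310 and 1947 for Cnot3 RIP, and 7724 and 9768 for control IgG RIP. Most of each sum was Malat1 (5984 and 4177 in Input), so the sums do not describe Airn, Kcnq1ot1 or Xist. Of 8 cardiomyocyte markers, all tested and present, 3 were lower by limma: the atrial peptide gene Nppa (-1.33), the ventricular light chain Myl2 (-1.21) and the cardiac troponin Tnni3 (-1.03). The list did not move as one, with a median of -0.54. Myh6 (0.77, limma adjusted p = 0.269) and Ryr2 (0.64, limma adjusted p = 0.262) went the other way and were not called. DESeq2 called 1 marker higher and 4 lower. Nppa was not called without control IgG RIP 1, Input 1 or Input 2 (0.057 to 0.16), and Myl2 (0.0527 to 0.271) and Tnni3 (0.0775 to 0.366) not without any one library other than Cnot3 RIP 1. With library size only none of the 3 was called (Nppa -0.42, adjusted p = 0.194; Myl2 -0.29, adjusted p = 0.303; Tnni3 -0.11, adjusted p = 0.729), and Myl2 and Tnni3 were not called with no filter (0.0826 and 0.104) or the replicate block (0.0569 and 0.0839).

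LRRTM genes are known mainly from neurons, so markers of neurons and glia were listed too. Of these 14 markers, 4 were tested, 0 were called by limma (1 lower at an unadjusted p under 0.05, and 0 by edgeR or DESeq2), and their median was -0.68. Snap25, Th and Chrna3, which mark neurons, had 0 reads in all 6 libraries. The list summed to 4.27 and 5.44 scaled CPM from control IgG, 4.67 and 2.998 from Cnot3 precipitates, and 6.465 and 7.05 from Input. This sum was thus lower in all RIP libraries than in Input. Which cells the Lrrtm2 and Lrrtm3 reads came from was not tested. The 2 of highest level were Dbh, which encodes the noradrenaline-forming enzyme of sympathetic neurons (-0.40, adjusted p = 0.531), and Uchl1 (-0.62, adjusted p = 0.179). Of 4 endothelial markers, all tested, Kdr stood at 0.60 (adjusted p = 0.371) and Cdh5 at 0.11 (adjusted p = 0.829), and of 4 fibroblast markers Col1a1 stood at 0.26 (adjusted p = 0.672) and Dcn at -0.64 (adjusted p = 0.0619). Of 3 leukocyte markers tested the lysozyme gene Lyz2 was lower (-0.84, adjusted p = 0.0450), a call lost without any one library other than Cnot3 RIP 1 (0.0609 to 0.328), with CPM without Rn45s (0.0646), no filter (0.0707) or the replicate block (0.0663), and at 0.069 with library size only.

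Genes of most like pattern were found by Pearson's r of log2 scaled CPM over the 6 libraries, among 13009 other genes. These libraries fall into 3 groups, so r describes the order of groups as much as of libraries. A gene picked for a high r is bound to share the direction against Input, so that direction is not a finding. For Lrrtm3 they were Cacna1c (r = 0.999), Zfp407 (0.999), Pcdhga6 (0.998), Sncaip (0.997) and Pcdhgb5 (0.997). Ctnna3 ranked 73 in that order (r = 0.983), Lrrtm2 303 (0.947) and Ctnna1 3434 (0.475). In the mean of both RIPs against Input, Zfp407 and Sncaip rose by 1.01 and 0.36, less than Lrrtm3. Cacna1c, the pore subunit of the cardiac L-type calcium channel, had 441 and 378 scaled CPM with control IgG, 278 and 261 with Cnot3 antibody, and 194 and 190 without precipitation (Input), the same order of groups over a much smaller range. Pcdhga6 and Pcdhgb5, clustered protocadherins, rose by 2.76 and 2.98 in the mean of both RIPs, close in size to Lrrtm3, and lost the call without Input 2 (adjusted p = 0.107 for both).

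For Ctnna3 the most like genes were Rp1 (r = 0.999), Trim43c (0.998), Pcdhga11 (0.997), Pcdhgb7 (0.996) and Arhgap20os (0.996), with 1 placeholder symbol passed over, and Lrrtm3 ranked 81. Ctnna1 was unlike its nested gene: Lrrtm2 and Ctnna1 had r = 0.178, and Ctnna1 ranked 5030 in the order of Lrrtm2. Lrrtm3 therefore followed its host across libraries more closely than Lrrtm2 followed Ctnna1, as a description of 6 libraries.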

How the data were processed

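RNA of 2 control IgG RIP, 2 Cnot3 RIP and 2 Input libraries of mouse heart was analysed. The deposited table gives CPM per gene; the submitters' processing notes name CASAVA 1.8, FastQC, Bowtie2 2.2.5, TopHat2 2.1.0, edgeR and mm10. Every value was a whole multiple of what 1 read is worth (100% within 0.01 read), which gave the reads back and with them the depth of 15713318 to 33479580 reads per library. The precision of a gene rests on its own reads.

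The filter of edgeR 4.0.16 (filterByExpr, minimum count 10) left 13010 genes. With R 4.3.3 and limma 3.58.1, a model of 3 group means over 6 libraries was fitted to log2 values, each TMM-scaled CPM having 0.25 added. Changes are on that log2 scale, which understates those of low genes. Benjamini-Hochberg adjustment ran over all genes tested and calls were made at an adjusted p under 0.05, two-sided. The fit was tested on simulated data. Alternatives were another pseudocount, 3 scalings, 2 filters, edgeR's quasi-likelihood test and DESeq2 1.42.0 on the recovered reads, a replicate block, and each library left out.

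The members and gene lists were chosen with earlier results of these data known. Named genes were all members, list genes passing the test (up to 4 per list and direction, otherwise the 2 of highest level) and the 5 genes most like Lrrtm3 and Ctnna3. Further genes, Cdh2 and the nested genes not called among them, were named after their values were seen. Of 13010 tested genes, 12514 matched 1 GENCODE M21 entry and could enter the nested pairs. Some listed marker genes are not reported here and were left out of their list's counts and sums.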

Additional observations from a re-analysis of the deposited data

How the results depend on the processing

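Of the 4 genes tested, 3 were called in the mean of both RIPs against Input, 0 to 3 when 1 library was left out (0 without Input 2, where 2 passed at an unadjusted limma p under 0.05) and 2 to 4 under other settings. In control IgG RIP against Input the number was 3, and 1 to 3 with 1 library left out. In Cnot3 RIP against Input it was 1, 0 to 2 with 1 library left out (0 without Input 1 or Input 2, with 2 and 1 at an unadjusted limma p), 4 with library size only and 2 with DESeq2. Over all genes, calls in the mean of both RIPs numbered 1229, 573 with CPM without Rn45s, 533 with no filter, 7742 with library size only and 0 to 2209 with 1 library left out. In control IgG RIP they numbered 530, 258, 438, 4393 and 20 to 895, and in Cnot3 RIP 1083, 638, 548, 7759 and 12 to 1970, in the same order, with 339 and 1156 by edgeR. The lone sample left in a group is assumed to vary like the others.

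Same-numbered libraries deviated together in 1 of 3 pairs of groups (r = -0.317 for control IgG with Cnot3 RIP, -0.327 for control IgG RIP with Input, 0.339 for Cnot3 RIP with Input), so the numbers were not taken to pair them, and whether equal numbers mark 1 experiment is not given in the sources used here. A replicate block gave 2, 3 and 2 called members in the 3 comparisons against Input, in the order above, and 627 genes in place of 1229 in the mean of both RIPs. Pairing with the control IgG numbers crossed, added after seeing the data, gave 3, 3 and 2 members and 3000, 1870 and 2498 genes.

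The Lrrtm3 to Ctnna3 difference was 1.80 to 2.30 and the Lrrtm2 to Ctnna1 difference 1.79 to 3.03 with 1 library left out, and the fit over pairs, not run with libraries left out, gave 1.97 and 2.27. The Lrrtm3 difference between Cnot3 and control IgG RIP was -2.33 to -1.56 with 1 library left out and -2.03 to -1.62 under other settings.

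Signs turned for several values not called: Cdh5 ranged from -0.12 to 0.33, Col1a1 from -0.084 to 0.61 and Dsp from -0.051 to 0.44 with 1 library left out, and in control IgG RIP Ctnna1 from -0.072 to 0.63. Cdh5 was also -0.019 with CPM without Rn45s. With library size only, Dbh (0.36), Dcn (0.28), Des (0.27) and Uchl1 (0.17) turned positive, as did Lyz2 (0.069), which had been called lower. The cause was not tested. Of 655 alternative values of single genes, 522 kept direction and call, 104 lost the call, 16 gained it and 12 reversed.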
